A study of Mus musculus with 2 samples.

Results

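The miR-219 and miR-338 loci were followed in small RNA sequencing libraries of adult mouse hippocampus. The genes were chosen by name. They are the 5 rows of the deposited tables whose Ensembl identifiers carry the names Mir219a-1, Mir219a-2, Mir219b, Mir338 and Mir3065 in the GENCODE M21 annotation, out of 2202 annotated miRNA genes. The labels describe wild-type male C57BL/6 mice (strain B6NCrl) aged 6 months, with no treatment, and give the tissue as a layer of the hippocampus without naming the layer. There is 1 group of 2 libraries, numbered as biological replicates 1 and 2. Their biosample identifiers differ but 1 donor identifier is given for both, so separate animals are not stated. Whether the spread between them is technical or lies between animals therefore cannot be told.

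MicroRNAs are short RNAs cut from a hairpin precursor. They lower the output of messenger RNAs that pair with their seed, bases 2 to 8 counted from the 5′ end. miR-219 and miR-338 are the textbook miRNAs of oligodendrocytes, the cells that wrap axons in myelin. They increase as oligodendrocyte precursors mature, and they act on messenger RNAs of factors that hold precursors in the dividing state, among them Sox6 and Hes5, and for miR-219 also Pdgfra. A bulk tissue library does not tell more cells of a type from more RNA per cell.

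Mature sequences are shown because the members share arms and lie opposite each other, and both facts bear on what the tables can count. The sequences are from RefSeq (build GRCm38.p6, the same coordinates as mm10), in which all 5 members were matched. Mir219c, which lies opposite Mir219a-1 and is not among the 5, is shown beside them. Each is written 5′ to 3′ with the seed in capitals.
miR-219a-5p (Mir219a-1 and Mir219a-2): uGAUUGUCcaaacgcaauucu
miR-219a-1-3p (Mir219a-1): aGAGUUGCgucuggacgucccg
miR-219b-5p (Mir219b): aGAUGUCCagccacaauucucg
miR-219b-3p (Mir219b): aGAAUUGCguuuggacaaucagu
miR-219c-5p (Mir219c): gGACGUCCagacgcaacucucg
miR-219c-3p (Mir219c): cGAGAAUUgcguuuggacaauc
miR-338-5p (Mir338): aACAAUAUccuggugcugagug
miR-338-3p (Mir338): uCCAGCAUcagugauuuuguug
miR-3065-5p (Mir3065): uCAACAAAaucacugaugcugg

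The 9 distinct mature sequences carry 9 distinct seeds, and none of these seeds stands in any other mature mouse miRNA of the RefSeq table. Among the arms listed, the genes of the miR-219 name do not share a seed, apart from Mir219a-1 and Mir219a-2, whose 5p arms are identical. RefSeq lists only a 5p arm for Mir219a-2 and for Mir3065, so the seed of any 3p arm of theirs is not covered. miR-219a-5p is among the 54 of 1674 distinct mature sequences (3.23%) that the table places at more than 1 position.

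Mir219a-2 (ENSMUSG00000065485.1, mm10 chromosome 2, 29845631 to 29845727, minus strand) is a hairpin of 97 bases. No other gene is annotated over it on the same strand, and the nearest protein-coding gene is Urm1, a ubiquitin-related modifier, at 629 bp. Mir219b (ENSMUSG00000105010.1, chromosome 2, 29845647 to 29845711, plus strand) lies wholly inside it on the opposite strand. Mir219a-1 (ENSMUSG00000065555.1, chromosome 17, 34024983 to 34025092, minus strand) is 110 bases long, overlaps an exon of the noncoding gene Gm26940 on the same strand, and lies 303 bp from the Polycomb gene Ring1. Mir338 (ENSMUSG00000065600.1, chromosome 11, 120014765 to 120014862, minus strand) is 98 bases long and lies in an intron of Aatk, a kinase gene of the nervous system, on the strand of Aatk. Mir3065 (ENSMUSG00000105524.1, chromosome 11, 120014767 to 120014853, plus strand) lies wholly inside the Mir338 hairpin on the opposite strand.

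The precursors of the miR-219a loci are shown to mark what they have in common. Capitals give the longest stretch that both hairpins share, 22 bases that hold the 21 bases of miR-219a-5p.
Mir219a-2: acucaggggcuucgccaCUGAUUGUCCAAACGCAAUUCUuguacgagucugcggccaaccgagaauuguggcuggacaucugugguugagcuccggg
Mir219a-1: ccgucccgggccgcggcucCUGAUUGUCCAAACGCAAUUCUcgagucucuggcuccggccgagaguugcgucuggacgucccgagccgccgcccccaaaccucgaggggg

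A read that falls wholly within those capitals matches both loci, and the tables place reads aligned to more than 1 place in a summary row and in no gene's count. The counts of Mir219a-2 and Mir219a-1 thus hold reads with a single alignment. They are counts per gene and do not tell which arm the reads came from. Of the 78 windows of 20 bases in the Mir219a-2 hairpin, 3 recurred in a gene elsewhere in the M21 transcripts, and those were at the Mir219a-1 locus. Of the 91 windows of Mir219a-1, 3 recurred, at the Mir219a-2 locus. None of the 79 windows of Mir338 and none of the 68 of Mir3065 recurred outside their own locus. The genome outside annotated transcripts was not searched.

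The precursors of the chromosome 11 locus are shown with the mature arms of the RefSeq table in capitals.
Mir338: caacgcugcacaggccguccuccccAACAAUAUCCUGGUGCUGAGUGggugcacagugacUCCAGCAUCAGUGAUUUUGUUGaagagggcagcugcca
Mir3065: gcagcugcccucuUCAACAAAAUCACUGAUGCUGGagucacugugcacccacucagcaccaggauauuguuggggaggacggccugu

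The Mir3065 hairpin is the reverse complement of 87 bases of the Mir338 hairpin, and miR-3065-5p lies opposite 21 of the 22 bases of miR-338-3p. In the same way, Mir219b is the reverse complement of 65 bases of Mir219a-2, and miR-219b-3p lies opposite all 21 bases of miR-219a-5p. At the third locus, Mir219c is the reverse complement of 60 bases of Mir219a-1.

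**Figure D1:**
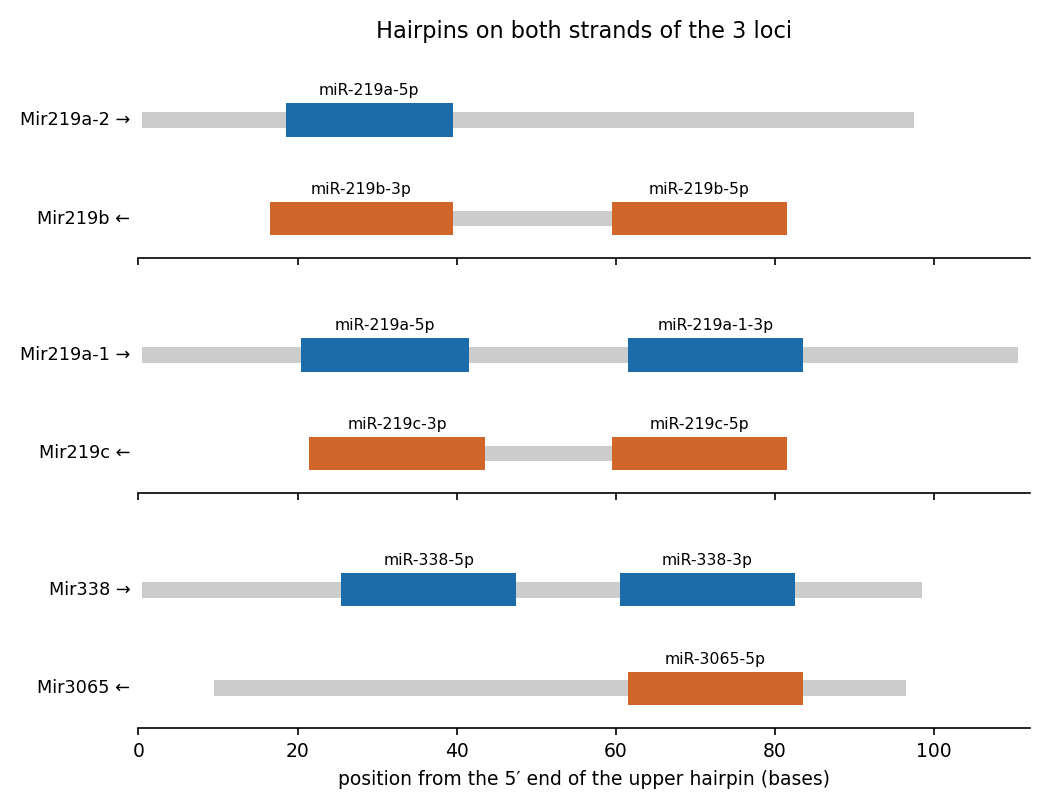
Hairpins on both strands of the Mir219a-2, Mir219a-1 and Mir338 loci, with the position in bases from the 5′ end of the upper hairpin (x axis), grey bars for hairpins, coloured blocks for the mature arms in the RefSeq table and arrows for the direction of transcription. The lower hairpins, 65, 60 and 87 bases long, lie wholly within the upper ones, and miR-219b-3p and miR-3065-5p sit opposite miR-219a-5p and miR-338-3p.

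The replicate 1 library held 11106392 reads, with 4247092 counts on miRNA genes, and the replicate 2 library held 12627039 reads, with 5041568. Levels are in CPM, the usual scaling by library size, with the counts on miRNA genes as the total, on which the 3630 CPM of Mir219a-2 in replicate 1 is 0.363% of the counts. Reads aligned to more than 1 place made up 43.8% and 45.7% of all reads in replicates 1 and 2. Where a gene had 0 counts, its level could still be up to that of 3 counts, 0.706 CPM for replicate 1 or 0.595 CPM for replicate 2. Intervals are exact 95% binomial intervals (Clopper-Pearson), and they and the floors reflect only counting error, as no molecular identifiers are named in the labels. Of 16 listed neuron-enriched miRNA genes, 11 stood at 10 CPM or more in each library. Below that were Mir124a-1 (1.41 and 1.59 CPM in replicates 1 and 2), Mir124a-3 (1.18 and 0.99 CPM) and Mir124a-2 (0.47 and 0 CPM). Mir9-2 (2.35 and 1.59 CPM) was also below, and Mir9-3 (7.53 and 50.98 CPM) was below in replicate 1 only. Reads aligned to more than 1 place are in none of these counts. Of 6 Hox-cluster miRNAs of hindbrain and spinal cord, 1 reached 10 CPM in both libraries.

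Mir219a-2 had 15418 counts in replicate 1 and 32488 in replicate 2. These were 3630 CPM (interval 3573 to 3688) and 6444 CPM (interval 6374 to 6514), or 5037 ± 1989.6 CPM (SD, n = 2). It ranked 46th and 33rd among the 2202 genes, so it was among the more abundant counted miRNAs of each library, and it was the higher of the miR-219a loci.

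Mir219a-1, the other locus with the miR-219a-5p sequence, had 48 and 49 counts, equal to 11.3 and 9.72 CPM (10.5 ± 1.12 CPM, SD, n = 2). It ranked 302nd and 321st, and its intervals, 8.33 to 15.0 CPM and 7.19 to 12.8 CPM, overlapped. The counts of Mir219a-2 were 321 times those of Mir219a-1 in replicate 1 (interval 242 to 436) and 663 times in replicate 2 (interval 501 to 896). This compares the reads that could be assigned to 1 locus, and the reads of the shared 5p arm that aligned to both are in neither count.

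Other miRNAs with the same mature sequence at a pair of loci, miR-128, miR-129, miR-138 and miR-218, were less uneven by the same measure. Mir128-1 stood at 4.46 and 4.47 times Mir128-2 in replicates 1 and 2. Mir129-2 stood at 3.49 and 7.33 times Mir129-1, Mir138-1 at 1.13 and 1.09 times Mir138-2, and Mir218-2 at 9.29 and 5.94 times Mir218-1. All 8 of these ratios lay below both ratios of the miR-219a loci. No test was made of this difference, and the share of reads lost to alignment at several places differs from pair to pair. These families were chosen after their values were seen, and not every family with several loci was compared. Outside them, Mir181b-2 had 7639 and 7954 counts in replicates 1 and 2, against 116 and 107 for Mir181b-1.

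Mir338 had 9238 counts in replicate 1 and 11760 in replicate 2. These were 2175 CPM (interval 2131 to 2220) and 2333 CPM (interval 2291 to 2375), or 2254 ± 111 CPM (SD, n = 2). It ranked 59th and 56th, and the libraries lay close together, with an SD of 0.0494 of the mean against 0.395 of the mean for Mir219a-2.

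The genes on the opposite strand had at most 1 count each. Mir219b had 0 counts in both libraries, at 15418 and 32488 counts on the facing strand. Mir3065 had 1 count in replicate 1 and 0 in replicate 2, at 9238 and 11760 counts on the facing strand. The 0 counts of Mir219b allow a level of up to the 3-count limits above, and the 1 count of Mir3065 in replicate 1, 0.235 CPM, has an upper bound of 1.31 CPM. Mir219c, opposite Mir219a-1, also had 0 counts in both.

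By mean CPM the order was Mir219a-2, Mir338, Mir219a-1, Mir3065 and Mir219b. Mir219a-2 exceeded Mir338 in each library, 1.67 times in replicate 1 (interval 1.63 to 1.71) and 2.76 times in replicate 2 (interval 2.70 to 2.82), and their ranges over the libraries did not overlap. Mir338 and Mir219a-1 did not overlap either. Mir3065 and Mir219b, at 1 and 0 counts over both libraries, were not distinguishable at this depth. The 5 genes together held 0.582% of the counts in replicate 1 (interval 0.574 to 0.589%) and 0.879% in replicate 2 (interval 0.871 to 0.887%), and Mir219a-2 made up 62.4% and 73.3% of that sum. The ratio to Mir338 and these shares count only reads aligned to 1 place. Reads within the 22 bases common to the miR-219a loci are missing from the count of Mir219a-2. Mir338 shared no window of 20 bases with another locus in the M21 transcripts. How many reads this removed from Mir219a-2 is not known.

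**Figure D2:**
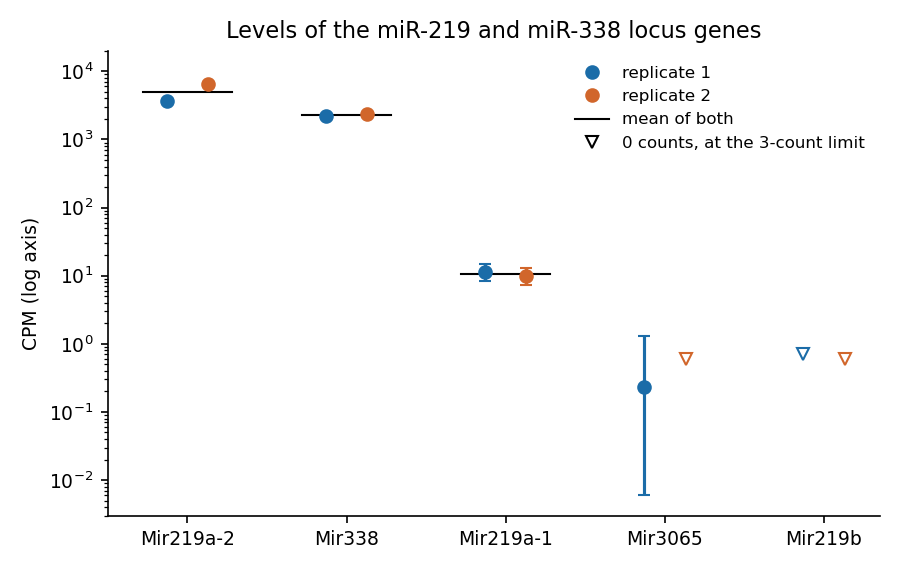
CPM on a log axis (y) of each of the 5 genes (x) in replicate 1 and replicate 2, with exact 95% binomial intervals, black lines for the means of genes above 1 CPM, and open triangles at the 3-count limit for a count of 0. Mir219a-2 and Mir338 sit between 2175 and 6444 CPM, and Mir219a-1 near 10.5 CPM. Mir3065 and Mir219b had at most 1 count per library, and their triangles lie above the point for the 1 count of Mir3065.

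The libraries were then compared gene by gene. Counts were tested with a binomial test, exact and two-sided, and p was adjusted by Benjamini-Hochberg over the 522 genes with at least 10 counts. The test compares the reads of 2 libraries and not conditions, and at this depth 51% of the genes tested passed at an adjusted p of 0.05, with 28.2% higher and 22.8% lower in replicate 2. The balance turned with the scaling, from 147 genes higher and 119 lower to 123 and 135 with TMM and 122 and 135 with DESeq2 size factors. Of the 5 genes, 3 had enough counts to be tested. Mir219b, with 0 counts, and Mir3065, with 1, did not.

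Mir219a-2 was 1.78-fold higher in replicate 2 (log2 ratio 0.83, interval 0.80 to 0.86), with a negative log10 of the adjusted p of 791 in the exact test. Mir338 was 1.07-fold higher in replicate 2 (log2 ratio 0.10, interval 0.06 to 0.14, adjusted p = 1.52e-06, exact test). Mir338 did not pass when the libraries were scaled by TMM (log2 ratio 0.028, adjusted p = 0.258, exact test) or by DESeq2 size factors (log2 ratio 0.025, adjusted p = 0.331, exact test). Mir219a-1 did not pass (log2 ratio −0.22, interval −0.82 to 0.39, adjusted p = 0.600, exact test). Against that 51%, 2 passing genes of 3 is no result about these genes.

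The size of the Mir219a-2 difference was read against genes of like level. Among the 34 other genes within 2-fold of its mean CPM, the median absolute log2 ratio was 0.24, and 6 exceeded its 0.83. Among the 276 genes that averaged 100 counts or more it ranked 49th by absolute log2 ratio, and the median over those genes was 0.36. For Mir338, 41 of 49 genes of like level had a larger absolute log2 ratio than its 0.10. The unequal change of the pair appears in the ratio of Mir219a-2 to Mir338 above, whose intervals in the replicates do not overlap and do not depend on how the libraries are scaled. That ratio still leaves out the reads of Mir219a-2 that aligned to both miR-219a loci.

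**Figure D3:**
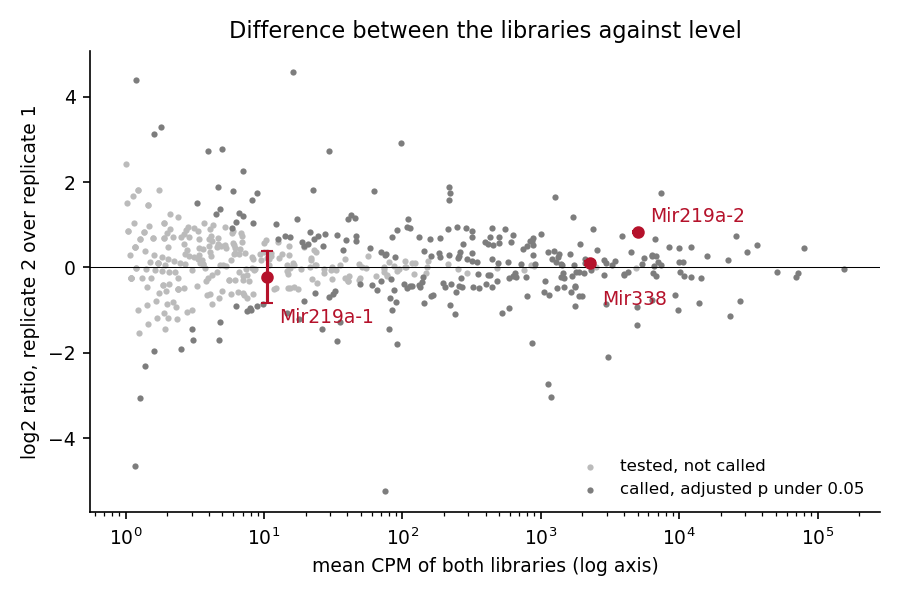
Log2 ratio of replicate 2 over replicate 1 (y) against the mean CPM on a log axis (x) for the 522 genes tested, with darker points for genes that passed and red points with 95% intervals for the 3 genes of these loci that were tested. Mir219a-2 lies at 0.83, Mir338 at 0.10 and Mir219a-1 at −0.22.

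Marker lists of other cells were measured beside this difference. Numbers of passing genes in these lists stand against 28.2% higher and 22.8% lower over all genes tested. The choroid plexus and ependyma list (5 genes, 4 of them at 10 CPM or more in both libraries) summed to 9225 CPM in the replicate 1 library against 3148 CPM in the other, the opposite direction to Mir219a-2. Of its members, 3 passed as lower in replicate 2 and 1 as higher, led by Mir204 (4941 ± 3056 CPM) and Mir34c (1127 ± 1176 CPM). The neuron-enriched list (16 genes) summed to 202749 and 181119 CPM, with 3 genes higher, 6 lower and 6 not passing of 15 tested, led by Mir139 (154950 ± 2333 CPM) and Mir132 (23338 ± 12352 CPM). Mir132 alone went from 32072 CPM in replicate 1 to 14605 CPM in replicate 2. The microglia and leukocyte list (5 genes found) summed to 2926 and 2627 CPM, with 0 genes passing as higher in replicate 2, 3 as lower and 2 not passing, and a median log2 ratio of −0.22. It was led by Mir150 (2044 ± 134 CPM) and Mir146 (662 ± 72.5 CPM).

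The vascular list (3 genes) summed to 8456 and 8769 CPM, and its members went opposite ways, with 1 passing as higher in replicate 2, 2 as lower, and a median log2 ratio of −0.58. It was led by Mir126a (6367 ± 934 CPM, log2 ratio 0.30) and Mir143 (2001 ± 644 CPM, log2 ratio −0.67). The erythroid list (2 genes) summed to 8.71 and 8.53 CPM, with Mir451a at 7.83 ± 1.25 CPM and Mir144 at 0 and 8 counts. The hindbrain and spinal cord list (6 genes) summed to 20.7 and 44.6 CPM, with 3 of 3 tested genes higher in replicate 2, led by Mir10a (15.3 ± 5.31 CPM) and Mir10b (12.2 ± 5.98 CPM), and with Mir196a-1 at 0 in both. Adapters were also trimmed under protocol versions that differ between the libraries, per the labels. The part of tissue makeup in the Mir219a-2 difference was not tested, and the trimming version and the library cannot be told apart.

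Other miRNA genes studied in the oligodendrocyte lineage did not share a direction. Of 9 such genes, all at 10 CPM or more in both libraries, 3 passed as higher in replicate 2, 4 as lower, and 2 did not pass. With TMM scaling, and likewise with DESeq2 size factors, 1 passed as higher, 4 as lower, and 4 did not pass. Over all genes tested in the main setting, 28.2% passed as higher and 22.8% as lower. Among genes with 100 counts or more, as all 9 had, 77.2% passed in either direction. The number passing is therefore no result about this list. The summed level of the list was 37680 CPM in the replicate 1 library against 49570 CPM in the other. Mir125a alone went from 19486 to 32303 CPM, so this 1 gene sets the direction of the sum. The median log2 ratio of the list was −0.11, against 0.09 over all 522 genes tested. Mir125a stood highest (25895 ± 9063 CPM, log2 ratio 0.73) and was followed by Mir23a (10195 ± 532 CPM, log2 ratio −0.11), a miRNA known to lower lamin B1, a nuclear protein whose excess disturbs myelin. The Mir138 loci, which have been tied to early oligodendrocyte maturation and are also high in neurons, stood at 3276 ± 85.3 CPM for Mir138-1 and 2954 ± 146 CPM for Mir138-2, with log2 ratios of 0.05 and 0.10. TMM and DESeq2 scaling moved every log2 ratio by −0.07 and −0.08, under which neither Mir138 locus passed (adjusted p = 0.361 for Mir138-1 and 0.184 for Mir138-2 with TMM, exact test) and the log2 ratio of Mir138-1 turned negative. Members of these lists are expressed in several cell types, so a list's sum is not a share of cells.

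**Figure D4:**
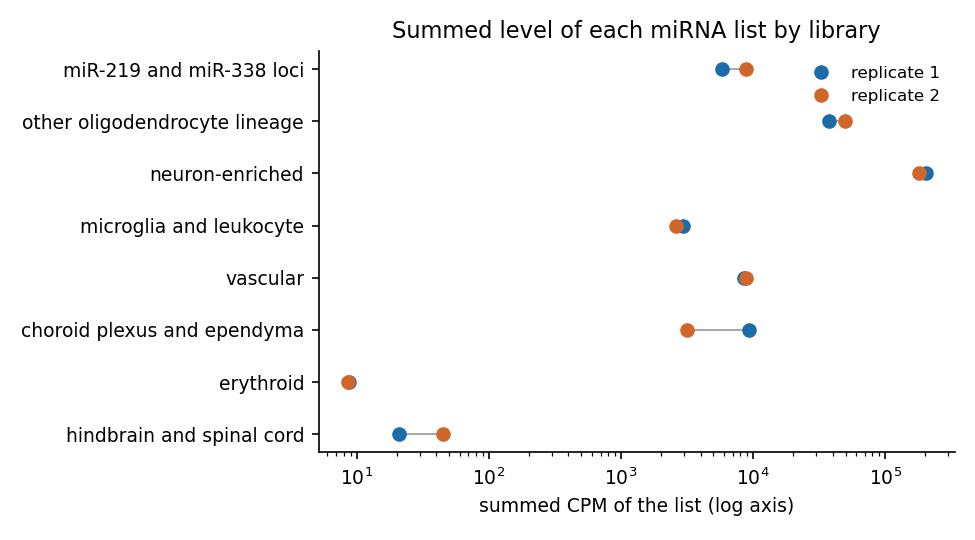
Summed CPM on a log axis (x) of the 5 genes and of each of the 7 marker lists (y), with a point for each replicate. The miR-219 and miR-338 loci sum to more in replicate 2, and the choroid plexus and ependyma list sums to less (9225 and 3148 CPM).

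The strand columns were examined because 4 of the 5 genes face each other in pairs. The opposite-strand count of Mir219b was 15418 and 32488, equal to the counts of Mir219a-2. The opposite-strand count of Mir3065 was 9238 and 11760, equal to those of Mir338. Neither Mir219a-2 nor Mir338 had a count when strand was disregarded, so a table read without strand would list both at 0. For Mir219a-1, 1 count remained in each library without strand, and the other 47 and 48 equalled the opposite-strand count of Mir219c.

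Reads that the column without strand sets aside as ambiguous numbered 267469 in replicate 1 and 370808 in replicate 2. They equalled, to the read, the counts missing there from the 32 pairs of miRNA genes that overlap on opposite strands. The 3 pairs with a member of these loci held 24704 of them in replicate 1 (9.24%) and 44296 in replicate 2 (11.9%).

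The one-sided use of these loci was set beside the other overlapping pairs. Of the 21 other pairs with a summed mean of at least 10 CPM, 13 had 0 counts on the lesser gene in both libraries and 18 had at most 2. The pairs with the highest levels were Mirlet7e with Gm25927, Mir191 with Gm24083 and Mir126a with Mir126b, each with 0 counts on the lesser gene. Exceptions, chosen after their values were seen, were Mir24-1 with Mir3074-1, where the lesser gene held 33.0% and 33.8% of the pair's counts, Mir486 with Mir3107 (10.4% and 9.41%), and Mir337 with Mir3544 (0 and 5 counts on the lesser gene). Counts on 1 strand only were thus common among such pairs. All these counts and shares hold only reads aligned to 1 place, and how many reads this left out of each gene is not known.

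**Figure D5:**
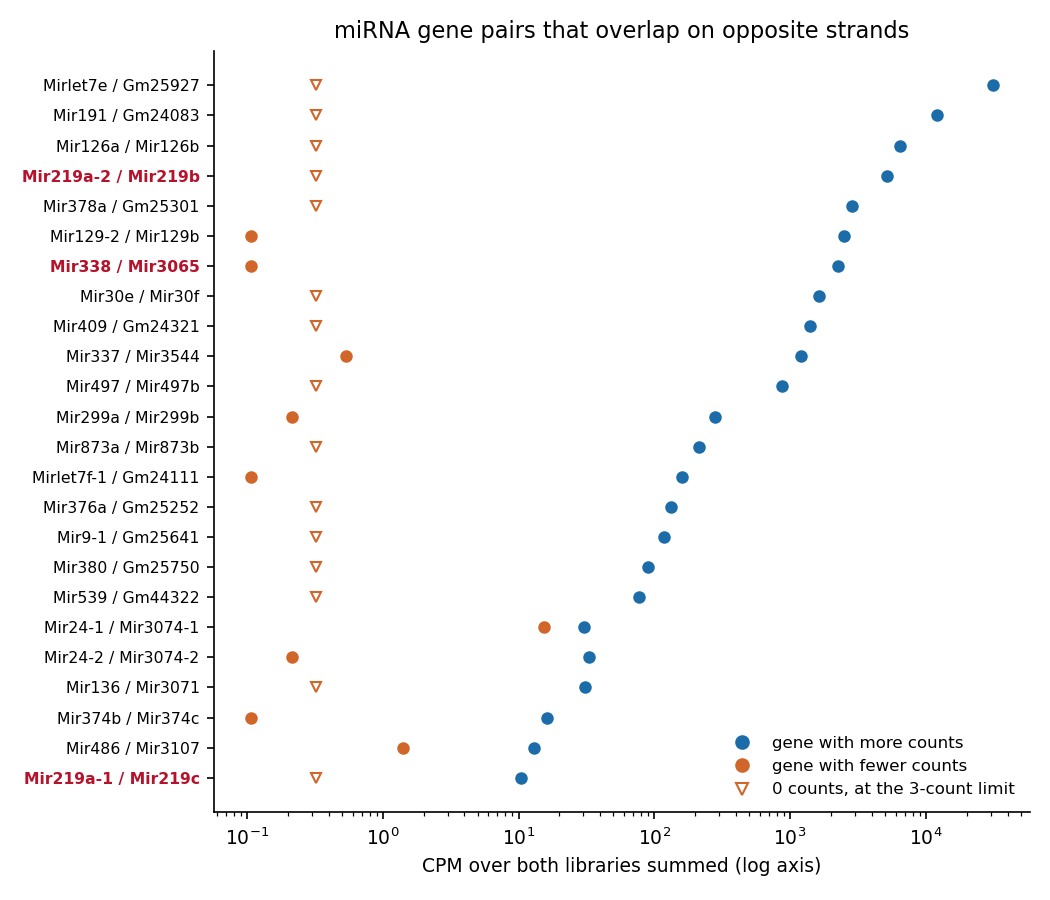
CPM over both libraries summed, on a log axis (x), of each gene in the 24 overlapping pairs with a summed mean of at least 10 CPM (y), with filled points for the genes with more and with fewer counts, and open triangles at the limit of 3 counts for genes with 0 counts, which lies above points of 1 or 2 counts. The 3 pairs with members of the miR-219 and miR-338 loci are in red, and none has more than 1 count on its lesser gene.

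The genes whose levels lay closest to the abundant members over the 2 libraries were named by the distance between log2(CPM + 1) values. For Mir219a-2 they were Mir383 (distance 0.37, 4502 ± 796 CPM) and Mir598 (distance 0.52, 5606 ± 615 CPM), and both had a smaller log2 ratio, 0.36 and 0.22. For Mir338 they were Mir484 (distance 0.12, 2318 ± 60.4 CPM) and Mir137 (distance 0.15, 2098 ± 119 CPM). With 2 libraries this likeness is mostly one of level.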

How the data were processed

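Small RNA was sequenced in 2 libraries of mouse hippocampus. The authors deposited raw read counts per miRNA gene, 1 table per library, with reads placed on mm10 and GENCODE M21 annotation, per the file headers. For the aligner and the counter, names were not given in the sources used here. A table has 2202 genes, 4 summary rows, and 3 count columns whose values show them to be without strand, sense and antisense. Sense counts were used. Summary rows stayed out of library sizes, and in the strand column they held 61.8% of reads in replicate 1 and 60.1% in replicate 2. The labels cite different adapter trimming protocol versions for the libraries.

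CPM was computed over all gene rows. The libraries were compared with an exact binomial test for genes with at least 10 counts, as 1 group allows no quasi-likelihood fit in edgeR. Log2 ratios had 0.5 counts added. The test was checked on simulated Poisson counts, which hold no spread beyond counting. P-values measure departure from counting error alone between 2 libraries, and no spread beyond counting was estimated. Windows of 20 bases were searched in both directions in the M21 transcripts; a search of the genome was planned, and the genome was not used here.

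Named genes beyond the 5 members were the 2 closest to each member with 10 CPM or more in both libraries, the 2 highest of each of 7 lists, and the 3 highest overlapping pairs. Loci of two-locus families, Mir144, Mir196a-1 and the exceptions among the pairs were added after their values were seen. So were the Mir181b loci and the Mir124a and Mir9 loci named. The members and lists were chosen with earlier results of these data known. Entries Mir142a and Mir146a matched no gene. Alternatives were other scalings (TMM of edgeR 4.0.16, size factors of DESeq2 1.42.0), denominators, count minimums, pseudocounts, strand columns and single libraries. Python 3.11.15, scipy 1.17.1 and R 4.3.3 were used.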

Additional observations from a re-analysis of the deposited data

How the results depend on the processing

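The call on Mir219a-2 held under the 3 other scalings tried, with log2 ratios of 0.75 to 0.84. The pseudocount enters the log2 ratio and not the test. The call on Mir338 was lost with TMM scaling (log2 ratio 0.028) and with DESeq2 size factors (log2 ratio 0.025), which moved every log2 ratio by −0.07 and −0.08. With all reads in the table as the total, the mean level of Mir219a-2 was 1981 CPM and that of Mir338 882 CPM, since the denominator then holds reads outside miRNA genes. With reads aligned to 1 place as the total, Mir338 stood at 2095 CPM. In the column without strand Mir219a-2 and Mir338 had 0 counts, so no log2 ratio or ratio of the pair could be given there. Without replicate 1 or replicate 2, the level of Mir219a-2 was 6444 or 3630 CPM, that of Mir338 2333 or 2175 CPM, and the ratio of the pair 2.76 or 1.67. Between the libraries, 266 of 522 genes passed (51%), 258 of 522 with TMM, 257 of 522 with DESeq2 size factors, 267 of 799 (33.4%) without a count minimum and 240 of 311 (77.2%) at 100 counts or more, so the background share depends on the count minimum. The rank of Mir219a-1 and Mir219a-2 among hairpins that share no stretch of 20 bases could not be given, since they share one. Mir338 ranked 47th among such hairpins, against 58th among all. No paired analysis was possible because there is 1 group. Depth limits Mir219a-1, at 97 counts in all, Mir219b and Mir3065.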
